A study of Mus musculus with 10 samples.

Results

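Open chromatin inside the longest mouse genes was described from the accessible regions (peaks) that lay deep within genes of more than 300 kb. A peak was included when it was autosomal, lay wholly inside a protein-coding gene over 300 kb, and had its centre more than 5 kb from the end of every annotated gene. By these criteria 1506 of the 37513 peaks in the table were included. They fell in 355 of the 532 autosomal protein-coding genes over 300 kb, and the other 177 genes held none. Of these peaks, 1505 had at least 10 reads over all libraries and were tested, and 1 in Stag1, with 5 reads, was not. Another 461 peaks lay wholly inside such a gene but within 5 kb of a gene end and were not included.

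The libraries came from an ATAC-seq assay on nuclei cut out of fresh frozen sections by laser-capture microdissection. In ATAC-seq the transposase Tn5 cuts accessible DNA and inserts sequencing adapters, so that the number of reads in a region reports how accessible it was. Sections of wild-type C57BL/6J mice, an inbred laboratory strain with no transgene or treatment named in the labels, were exposed to Tn5 on the slide before randomly chosen nuclei were captured. Brain was represented by 2 libraries of 50 individually captured nuclei and 2 libraries of about 200 nuclei, taken as 10 areas of about 20 nuclei each. Lung was represented by 3 libraries of 50 nuclei and 3 of about 200 nuclei, made in the same ways, so the number of nuclei and the way of capture changed together. The labels call the replicates technical and give no age, sex or number of animals, so the p-values measure only the spread between these libraries. Each library mixed the cell types of its tissue, and fewer cells of a type cannot be told apart from lower accessibility per cell.

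Very long genes are unevenly spread over cell types. Many encode the adhesion molecules, receptors, channels and scaffolds of synapses, and the introns of such genes hold enhancers as well as alternative internal promoters from which shorter proteins are made. Other long genes encode junction, cytoskeletal and signalling proteins that are widely used in vessels, epithelium and connective tissue, so the long genes include both neuronal genes and genes of lung cells.

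Sequence could be shown for peaks near an annotated start inside a long gene, because RefSeq (GRCm38.p6, the assembly of mm10) gives a window of 250 bases before and 50 bases after each start. Such windows overlapped 39 of the 1506 peaks, and 24 of the 39 peaks cover the annotated start itself. The others lie up to 212 bases from it. The 6 windows below lie on the plus strand and are shown because their peaks were called higher in one tissue, including a pair of windows in Pakap whose peaks were called in opposite directions. Capitals mark the bases that lie inside the peak, with the peak's coordinates read as the file gives them, which leaves an uncertainty of 1 base at its start. The annotated start is base 251 of each window. The peaks of the upstream Pakap window and of the Nrxn3 window cover bases before the start and end 96 and 127 bases short of it.
Pakap upstream window, peak higher in brain (chr4:57567998-57568297): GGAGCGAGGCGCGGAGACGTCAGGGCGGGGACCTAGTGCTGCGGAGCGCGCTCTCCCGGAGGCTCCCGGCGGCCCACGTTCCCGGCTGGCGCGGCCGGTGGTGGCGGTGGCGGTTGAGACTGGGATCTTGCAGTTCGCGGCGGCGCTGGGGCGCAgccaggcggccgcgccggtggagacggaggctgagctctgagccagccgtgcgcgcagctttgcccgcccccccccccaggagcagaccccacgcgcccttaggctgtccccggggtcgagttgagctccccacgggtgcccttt
Pakap downstream window, peak higher in lung (chr4:57844998-57845297): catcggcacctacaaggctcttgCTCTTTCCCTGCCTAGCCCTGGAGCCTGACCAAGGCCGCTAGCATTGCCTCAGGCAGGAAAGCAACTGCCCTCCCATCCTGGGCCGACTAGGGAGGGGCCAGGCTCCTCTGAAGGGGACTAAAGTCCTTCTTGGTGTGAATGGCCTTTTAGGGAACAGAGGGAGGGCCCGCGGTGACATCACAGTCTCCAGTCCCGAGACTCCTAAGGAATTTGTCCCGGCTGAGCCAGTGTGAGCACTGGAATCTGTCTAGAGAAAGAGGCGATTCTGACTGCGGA
Frmd4a internal window, peak higher in lung (chr2:4559504-4559803): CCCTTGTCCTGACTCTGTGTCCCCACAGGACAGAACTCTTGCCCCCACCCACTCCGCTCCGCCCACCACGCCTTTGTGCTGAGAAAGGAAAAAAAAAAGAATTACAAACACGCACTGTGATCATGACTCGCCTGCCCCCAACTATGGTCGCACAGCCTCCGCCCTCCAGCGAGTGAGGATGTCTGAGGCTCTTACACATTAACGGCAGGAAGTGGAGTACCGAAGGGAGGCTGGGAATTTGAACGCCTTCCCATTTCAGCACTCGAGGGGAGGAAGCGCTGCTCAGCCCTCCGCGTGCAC
Schip1 internal window, peak higher in brain (chr3:68572118-68572417): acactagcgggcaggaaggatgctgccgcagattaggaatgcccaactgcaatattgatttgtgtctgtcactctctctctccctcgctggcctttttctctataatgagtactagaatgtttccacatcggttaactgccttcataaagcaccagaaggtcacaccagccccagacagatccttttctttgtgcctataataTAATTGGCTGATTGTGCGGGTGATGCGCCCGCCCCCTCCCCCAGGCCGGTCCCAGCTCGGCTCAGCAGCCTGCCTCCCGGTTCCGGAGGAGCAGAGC
Anks1b internal window, peak higher in brain (chr10:90576441-90576740): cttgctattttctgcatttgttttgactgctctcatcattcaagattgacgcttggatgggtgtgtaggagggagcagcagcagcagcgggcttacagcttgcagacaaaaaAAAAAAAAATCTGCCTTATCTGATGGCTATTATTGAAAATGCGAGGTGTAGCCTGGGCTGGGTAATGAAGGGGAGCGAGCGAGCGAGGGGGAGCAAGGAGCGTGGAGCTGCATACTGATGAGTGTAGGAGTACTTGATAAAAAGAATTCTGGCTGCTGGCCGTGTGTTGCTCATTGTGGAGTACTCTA
Nrxn3 internal window, peak higher in brain (chr12:89812233-89812532): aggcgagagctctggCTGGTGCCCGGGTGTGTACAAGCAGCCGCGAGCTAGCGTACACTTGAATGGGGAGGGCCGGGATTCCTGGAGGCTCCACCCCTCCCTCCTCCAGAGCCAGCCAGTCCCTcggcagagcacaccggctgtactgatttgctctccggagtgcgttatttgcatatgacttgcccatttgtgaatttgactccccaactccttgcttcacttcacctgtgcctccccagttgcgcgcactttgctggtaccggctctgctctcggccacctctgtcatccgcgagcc

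The upstream Pakap window was the most GC-rich of the 6, at 75.3% G and C with 37 CpG dinucleotides, and the downstream Pakap window had 58.3% G and C with 9 CpGs. The Frmd4a window had 15 CpGs, the Nrxn3 window 16, the Schip1 window 11 and the Anks1b window 8. Over all 32851 windows of the RefSeq table the median was 52.7% G and C with 7 CpGs. The median was 16 CpGs over the 11 windows whose peaks were called higher in brain, 12 over the 2 with peaks higher in lung and 13 over the 25 distinct windows with no call. A GC box, GGGCGG read on both strands, occurred in 20 of the 38 distinct internal windows, against 35.7% of all windows. A TATA box, TATAAA on both strands, occurred in 1 of the 38, against 13.6% of all windows. Among the windows shown, GGGCGG was found in those of upstream Pakap, Frmd4a and Schip1. The sequence of the other peaks was not used here.

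The libraries differed in depth more than in the share of reads that fell in these peaks. Reads in nuclear peaks numbered 319307 to 465489 in the brain libraries and 340697 to 3075377 in the lung libraries, and 93.4 to 95.8% of all counts in brain and 24.7 to 58.0% in lung were mitochondrial. Values are given as reads per 1000000 nuclear-peak reads (RPM). Peaks within 1 kb of the ends of neuronal marker genes summed to 262 to 366 RPM in brain and 11 to 59.3 RPM in lung, with a peak at 9 of 14 markers, all 9 higher in brain on average, and Elavl3 at 0 in every lung library. For oligodendrocytes the sum was 135 to 200 RPM in brain and 2.94 to 65.7 RPM in lung (4 of 8 markers, all 4 higher in brain on average). The same sum for endothelial markers was 95.3 to 179 RPM in brain and 273 to 541 RPM in lung (8 of 11 markers with a peak, 1 of them higher in brain on average). For lung mesenchyme it was 52.7 to 94.0 RPM in brain and 238 to 414 RPM in lung (4 of 7 markers, 1 higher in brain). Alveolar type 1 markers overlapped, at 85.3 to 167 RPM in brain and 161 to 256 RPM in lung (5 of 7 markers, 2 higher in brain). Alveolar type 2 markers (6 of 6 with a peak) did not separate the tissues, with 148 to 172 RPM in brain and 148 to 195 RPM in lung. Replicates 2 and 3 of the 50-nuclei lung libraries stood apart in coverage. They had a read in 45.9% and 38.8% of the intragenic peaks of long genes, against 79.2 to 91.2% in the brain libraries and 85.5 to 95.2% in the other lung libraries.

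Among these peaks, 141 were called higher in brain and 70 higher in lung, which is 9.37% and 4.65% of those tested. The background over all 37466 tested peaks was 5.76% higher in brain and 4.39% higher in lung (edgeR's quasi-likelihood test, Benjamini-Hochberg adjusted p under 0.05). The excess over the background was thus on the brain side, while the lung share lay near it. At an unadjusted p under 0.05, 451 of the 1505 peaks passed. Over all 1505 peaks, called or not, the 4 brain values exceeded every lung value in 169 (11.2%) and the 6 lung values exceeded every brain value in 83 (5.51%). The background for such separation over all tested peaks of the table was 8.4% with brain above and 4.94% with lung above. The median log2 fold over the 1505 peaks was -0.18, against 0.07 over all tested peaks, so the median lay on the lung side although brain calls were the more numerous. These counts depended on single libraries. The 141 became 71 or 69 without replicate 1 or 2 of the 50-nuclei brain libraries, 63 or 76 without replicate 1 or 2 of the 200-nuclei brain libraries, 231 without replicate 1 of the 50-nuclei lung libraries and 82 without replicate 3 of the 200-nuclei lung libraries. In the same order the 70 became 36 or 25 and 31 or 34 without a brain library, and it became 107 or 162 without replicate 2 or 3 of the 50-nuclei lung libraries and 40 or 36 without replicate 2 or 3 of the 200-nuclei lung libraries. Leaving out replicates 2 and 3 of the 50-nuclei lung libraries together gave 166 brain and 234 lung calls.

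The peaks called in each direction differed in width and level. Most lung libraries were deeper than the brain libraries, so reads summed over all libraries weigh lung more. Few reads were expected in brain at low peaks, and the level a peak needed to be called in each direction was not computed. The part of depth in these differences was not tested. Peaks higher in brain were narrow and nearly closed in lung, with a median width of 105 bp, a median of 37 reads over all libraries, and median levels of 18.2 RPM in brain and 0.792 RPM in lung. Their median log2 fold was 4.70, also with the 9 peaks that had no lung read set to the bound that 3 reads over the 6 lung libraries allow. Peaks with no read in the 50-nuclei lung libraries alone were not bounded. As folds average the sizes on the log scale, such folds can exceed the ratio of the RPM means. The Nckap5 peak chr1:126684077-126684170 had a log2 fold of 4.16 at 16.6 RPM in brain and 2.80 RPM in lung. Peaks higher in lung were wider, with a median width of 308.5 bp, 370.5 reads, and median levels of 7.78 RPM in brain and 44.2 RPM in lung, and their median log2 fold was -2.62. Each of the 70 had at least 1 brain read, and 13 of them had 5 or fewer. Uncalled peaks had a median width of 126 bp, 81 reads, and 7.33 RPM in brain and 8.58 RPM in lung. Raising the minimum with edgeR's filterByExpr left 117 of the 141 brain peaks untested and all 70 lung peaks tested, and there were then 22 brain and 51 lung calls.

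**Figure D1:**
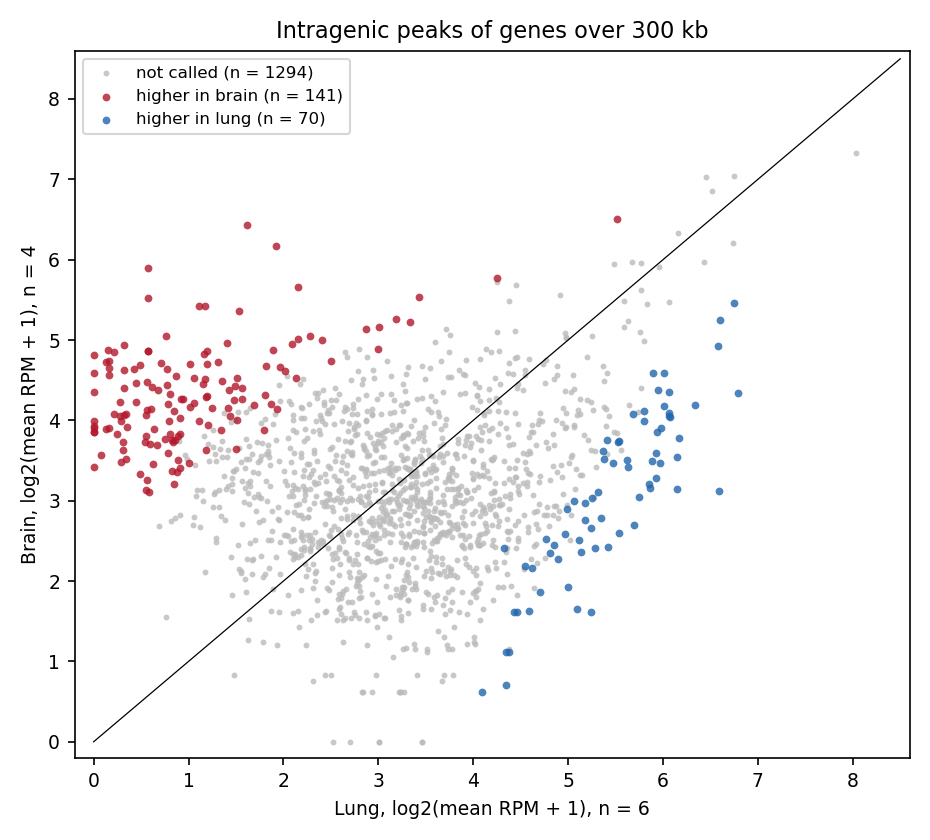
Mean accessibility of the intragenic peaks of genes over 300 kb in brain (vertical axis, mean of 4 libraries) and lung (horizontal axis, mean of 6 libraries), both as log2(RPM + 1), with peaks called higher in brain in red (141), higher in lung in blue (70) and the 1294 tested peaks with no call in grey. The line marks equal levels, and red points gather near 0 in lung (median 0.792 RPM) while blue points extend to higher levels in both tissues.

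To ask which long genes were opened in each tissue, the reads of all such peaks of a gene were summed and tested against all 3670 genes with intragenic peaks chosen by the same distance rule. Of the 355 genes over 300 kb, 61 were higher in brain and 31 higher in lung, which is 17.2% and 8.73%. The background over the 3670 genes was 9.56% higher in brain and 11.7% higher in lung. Over all 355 genes, called or not, every brain library was above every lung library in 61 (17.2%) and every lung library above every brain library in 31 (8.73%), counts equal to those of the calls although not all genes are shared, and the background of separated genes was 9.35% with brain above and 10.1% with lung above. The median log2 fold was 0.18 over the long genes and -0.15 over all genes tested. The 61 became 39 without replicate 2 of the 50-nuclei brain libraries and 98 without replicate 1 of the 50-nuclei lung libraries. The 31 became 17 without that brain library and 54 without replicate 3 of the 50-nuclei lung libraries. Without replicates 2 and 3 of the 50-nuclei lung libraries together, there were 71 brain and 67 lung genes. Among the 61 are 3 overlapping loci on chromosome 18 (Gm37013, Gm38666 and Gm38667) that share the same 2 peaks and so give 1 measurement.

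With all libraries and TMM scaling, genes over 300 kb gave more brain calls than lung calls, and shorter genes the reverse. Neither direction held under every alternative, and for peaks at 100 to 300 kb the reverse was lost in many. In genes over 300 kb, 9.37% of tested peaks were higher in brain and 4.65% higher in lung. In genes of 100 to 300 kb the shares were 5.61% and 5.96%, in genes of 30 to 100 kb 5.34% and 6.03%, and in genes of up to 30 kb 5.38% and 6.75%. Counted by gene, 17.2% of those over 300 kb were higher in brain and 8.73% in lung, against 9.44% and 13.7% at 100 to 300 kb, 8.78% and 11.4% at 30 to 100 kb, and 7.38% and 10.6% at up to 30 kb. No test was made of these shares, as peaks and genes share their libraries. With filterByExpr the peaks over 300 kb turned to the lung side, at 1.76% higher in brain and 4.07% in lung, against 1.28% and 4.72% at 100 to 300 kb. In RPM that filter's minimum was higher in brain, as described above. Without replicates 2 and 3 of the 50-nuclei lung libraries the peaks over 300 kb turned too, at 11% and 15.5%, against 8.41% and 16.1% at 100 to 300 kb. Without replicate 3 of these alone the shares over 300 kb were nearly equal, at 10.8% each. With RLE scaling all 3 shorter classes turned to the brain side, at 6.54% and 5.58% at 100 to 300 kb, 6.0% and 5.7% at 30 to 100 kb, and 6.5% and 6.0% at up to 30 kb, against 9.9% and 4.58% over 300 kb. Of 18 settings tried, the brain share less the lung share was higher over 300 kb than in each shorter class in 17, all but filterByExpr. The share of nuclear reads did not follow the share of calls. The intragenic peaks of genes over 300 kb took 1.63 ± 0.140% of nuclear reads in brain (SD, n = 4) and 1.86 ± 0.135% in lung (SD, n = 6). By library it was 1.82, 1.6, 1.63 and 1.48% in brain, and 1.64 to 2.03% in lung, so the ranges overlapped. For genes of 100 to 300 kb the share was 4.06 ± 0.356% in brain and 5.23 ± 0.158% in lung (SD, n = 4 and n = 6).

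**Figure D2:**
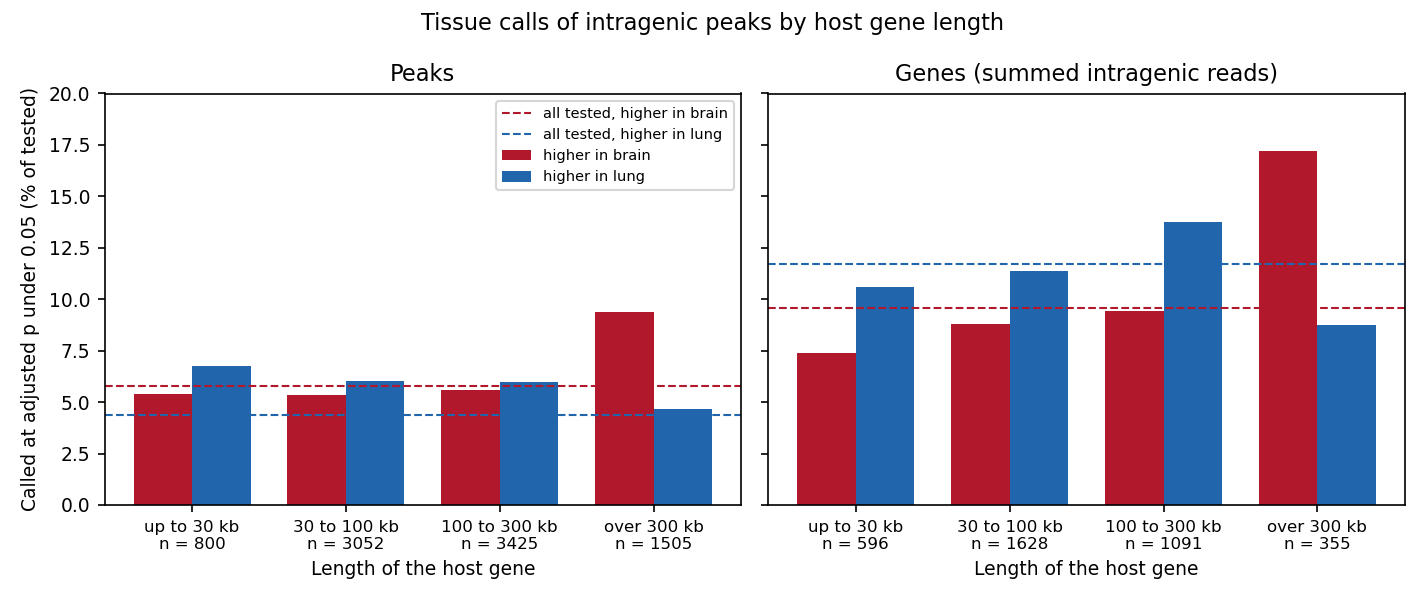
Percentage of tested intragenic peaks (left) and of genes by their summed intragenic reads (right) called higher in brain (red) or lung (blue) by length of the host gene, with the number tested under each class and the percentage over all tested peaks or genes as dashed lines. At over 300 kb brain calls exceed lung calls (9.37 against 4.65% of peaks, 17.2 against 8.73% of genes), and in the 3 shorter classes lung calls are the more frequent. The order turns over 300 kb with filterByExpr (1.76 against 4.07% of peaks) and in the shorter classes with RLE scaling.

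The genes called higher in brain held few open regions, and those called higher in lung held many. Nuclear-peak reads numbered 319307 to 465489 in the brain libraries and 340697 to 3075377 in the lung libraries. The number of reads that a gene needed to be called in each direction was not computed. The part of depth in this contrast was not tested. The 61 brain genes had a median of 1 such peak and a median length of 718 kb, with median sums of 28.4 RPM in brain and 1.75 RPM in lung. Their median log2 fold was 4.17, unchanged when the 3 genes with no lung read were set to their bounds. The 31 lung genes had a median of 8 peaks and a median length of 426 kb, with median sums of 75.1 RPM in brain and 152 RPM in lung and a median log2 fold of -1.12. Of the 106 genes with a single such peak, 31 were higher in brain and 2, Jazf1 and Slc2a13, higher in lung. Of the 37 genes with 10 or more, 0 were higher in brain and 15 higher in lung by edgeR. Over all 355 long genes the shares were 17.2% higher in brain and 8.73% higher in lung. Peak density over the 355 genes ranged from 0.0486 to 5.95 peaks per 100 kb with a median of 0.585.

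Genes over 1 Mb held a peak about as often as long genes in general. Of the 55 genes over 1 Mb, 37 held a peak, beside 355 of all 532 genes over 300 kb. Of these 37, 19 were higher in brain and 2, Lrmda and Rbms3, in lung, beside 17.2% and 8.73% of all 355 long genes. Among the 8 longest, Ptprd, Cntnap2 and Csmd1 had no such peak at all. Lsamp (chr16:39984254-42181679, 2197426 bp), an adhesion protein of limbic neurons, had 5 peaks with 76.1 ± 24.2 RPM in brain and 9.84 ± 8.42 RPM in lung (SD, n = 4 and n = 6). Lrp1b, a giant lipoprotein-receptor relative, had 1 peak with 13.9 ± 8.76 RPM in brain and 0.556 ± 1.04 RPM in lung (adjusted p = 0.00807 by edgeR). Macrod2 had 6 peaks and was not called, at 37.3 ± 12 RPM in brain and 58.6 ± 15.1 RPM in lung.

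Adhesion molecules of neurons were called on the brain side. Of 42 listed genes over 300 kb, 25 held a peak, and 17 of the 25 were higher in brain and 0 higher in lung by edgeR, with a median log2 fold of 2.63. Over all 355 long genes, 17.2% were higher in brain and 8.73% in lung, with a median of 0.18. Of their 59 peaks, 26 were higher in brain and 1 higher in lung. The 17 included Nrxn3, a neurexin of the presynaptic side, the contactins Cntn4 and Cntn5, the IgLON proteins Lsamp and Opcml, and Dscam, Sdk1, Tenm3 and Lrrc4c. Their log2 folds ran from 1.37 in Ctnnd2 to 5.78 in Cntn4, leaving out Ptprt, which had no lung read. Listed members without a call included Nlgn1, a postsynaptic partner of neurexins, at a log2 fold of -0.63, and Cadm2 at 2.51, each with 1 peak. Summed over the list, the brain libraries held 667 to 868 RPM and the lung libraries 241 to 357 RPM, without overlap.

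Nrxn3 (chr12:88722701-90334935) had 4 peaks, all called higher in brain. Its sum was 93.0 and 65.8 RPM in the 50-nuclei brain libraries and 72.7 and 60.2 RPM in the 200-nuclei brain libraries, against a lowest, median and highest of 0, 6.18 and 12.7 RPM in lung. The lowest brain library was above the highest lung library (log2 fold 3.69 ± 0.61 SE, adjusted p = 5.44e-05 by edgeR). One of the peaks, chr12:89812248-89812356, lies in the internal window shown above, before the annotated start, with 24.9 ± 9.0 RPM in brain and 1.28 ± 2.02 RPM in lung (SD, n = 4 and n = 6). Lsamp had 82.1, 56.4, 108 and 58.0 RPM in the brain libraries, against 0, 7.25 and 20.1 RPM as lowest, median and highest in lung. Its groups did not overlap either (log2 fold 2.98 ± 0.54 SE). Ptprt, a receptor tyrosine phosphatase, had 13.7, 6.26, 12.5 and 21.5 RPM in the brain libraries and no read in any lung library. Against the limit of 3 reads over the 6 lung libraries, it was at least 37.1-fold higher in brain.

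Of 43 listed receptors and channels of neurons over 300 kb, 17 held an intragenic peak, 6 were higher in brain and 0 higher in lung by edgeR, beside 17.2% and 8.73% of all 355 long genes. The median log2 fold of the 17 was 0.03, against 0.18 over the 355. The 6 included Gria1 and Grik4, which encode glutamate receptor subunits, and Cacna1a, Cacna2d3 and Dpp6, which encode subunits of calcium and potassium channels. Gria1 (chr11:57011571-57330244), the GluA1 subunit of AMPA receptors, had 16.4, 50.1, 27.6 and 19.3 RPM in the brain libraries and a read in 1 lung library only, at 0.650 RPM (log2 fold 6.83 ± 1.25 SE, adjusted p = 0.000261 by edgeR). Kcnab1, a potassium-channel beta subunit outside the list, had 38.3, 62.6, 77.7 and 51.6 RPM in the brain libraries, against 0, 8.51 and 18.3 RPM as lowest, median and highest in lung (log2 fold 3.22 ± 0.61 SE). Every brain library was above every lung library in both genes. Cacna1c, the pore of a calcium channel used in neurons and in muscle, had 16 peaks and no call on its sum, at 141 ± 43.5 RPM in brain and 157 ± 69.5 RPM in lung.

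Synaptic scaffolds and release proteins gave 6 of 16 genes higher in brain, 2 higher in lung and a median log2 fold of 1.39, against 17.2% higher in brain, 8.73% higher in lung and a median of 0.18 over all 355 long genes. With 16 genes, 2 lung calls are close to that background. Dlg2, a scaffold of the postsynaptic density, had 71.1, 47.0, 42.6 and 19.3 RPM in the brain libraries, against 0, 1.30 and 4.27 RPM as lowest, median and highest in lung. Its tissues were fully separated (log2 fold 4.37 ± 0.87 SE, adjusted p = 0.000517 by edgeR). The other brain genes were Rims2 and Erc2 of the presynaptic active zone, Ank2, Anks1b and Nbea. The 2 lung genes were Camk1d, a calmodulin-dependent kinase, at a log2 fold of -1.62, and Syn3, a synapsin, at -0.81. Syn3 encloses Timp3, an inhibitor of matrix metalloproteinases, and its sum of 22 peaks was 178 ± 58.6 RPM in brain and 315 ± 71.0 RPM in lung, with overlap between the tissues. Its call was lost without 50-nuclei brain replicate 2, 200-nuclei brain replicate 1 or 50-nuclei lung replicate 1, at adjusted p of 0.0985, 0.107 and 0.0746 by edgeR. Reads in a nested gene's part of a host cannot be told apart from reads of the host. Of 12 axon guidance and neuregulin genes, 3 were higher in brain and 0 in lung by edgeR (Unc5c, a netrin receptor, Dab1 of the reelin pathway, and Nrg1), with a median of 1.6.

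Of 28 regulators of transcription, 3 were called toward brain and 2 toward lung, beside 17.2% and 8.73% of all 355 long genes. Their median log2 fold was 0.02, against 0.18 over the 355. Over their 143 peaks the median was -0.35, against -0.18 over all 1505. Myt1l (chr12:29527590-29923216), a zinc-finger factor of neurons, had the lowest p of the genes higher in brain. It had 65.7, 78.3, 110 and 47.3 RPM in the brain libraries, against 0, 1.2 and 2.22 RPM as lowest, median and highest in lung (log2 fold 6.07 ± 0.69 SE, adjusted p = 7.17e-07 by edgeR). Its lowest brain library exceeded its highest lung library. Most of this signal came from 1 peak, chr12:29872481-29872729, at 58.7 ± 18.9 RPM in brain and 0.491 ± 0.894 RPM in lung (SD, n = 4 and n = 6). Thrb, a thyroid hormone receptor, and Foxp2 were the other 2 higher in brain, at 3.16 and 3.38. Bach2, a repressor best known in lymphocytes, was higher in lung, with 16 peaks summing to 170, 166, 150 and 140 RPM in the brain libraries against 262, 332 and 348 RPM as lowest, median and highest in lung (log2 fold -1.0 ± 0.19 SE). Tcf4, at -0.70, was the other. Across the 10 libraries, the genes whose log2(RPM + 1) profile was most like that of Myt1l among the 355 were Dock1, Sdk1 and Slc35f1 (Pearson r 0.986, 0.970 and 0.969), as a description over libraries that fall into 2 tissues.

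RNA-binding proteins gave 1 brain gene, Rbfox1, a splicing factor of neurons and muscle, and 1 lung gene, Rbms3, among 5 tested. Over all 355 long genes, 17.2% were higher in brain and 8.73% in lung. Rbfox3, which encodes the neuronal nuclear antigen NeuN, was not called on its sum of 4 peaks, but 1 of them, chr11:118585483-118585585, had 10.9, 25.1, 37.6 and 4.30 RPM in the brain libraries and no read in any lung library. This peak was at least 48.9-fold higher in brain against 3 reads over the lung libraries. The other 3 Rbfox3 peaks had reads in both tissues and no call. Large genes used in most cell types gave 1 brain call, Diaph3, and 0 lung calls by edgeR among 18, beside the same 17.2% and 8.73%. Their median log2 fold was 0.26, against 0.18 over the 355. Diaph3, a formin that assembles actin, had its call from 1 peak with 41.0, 25.1, 22.6 and 30.1 RPM in the brain libraries and a read in 1 lung library only, at 1.46 RPM.

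**Figure D3:**
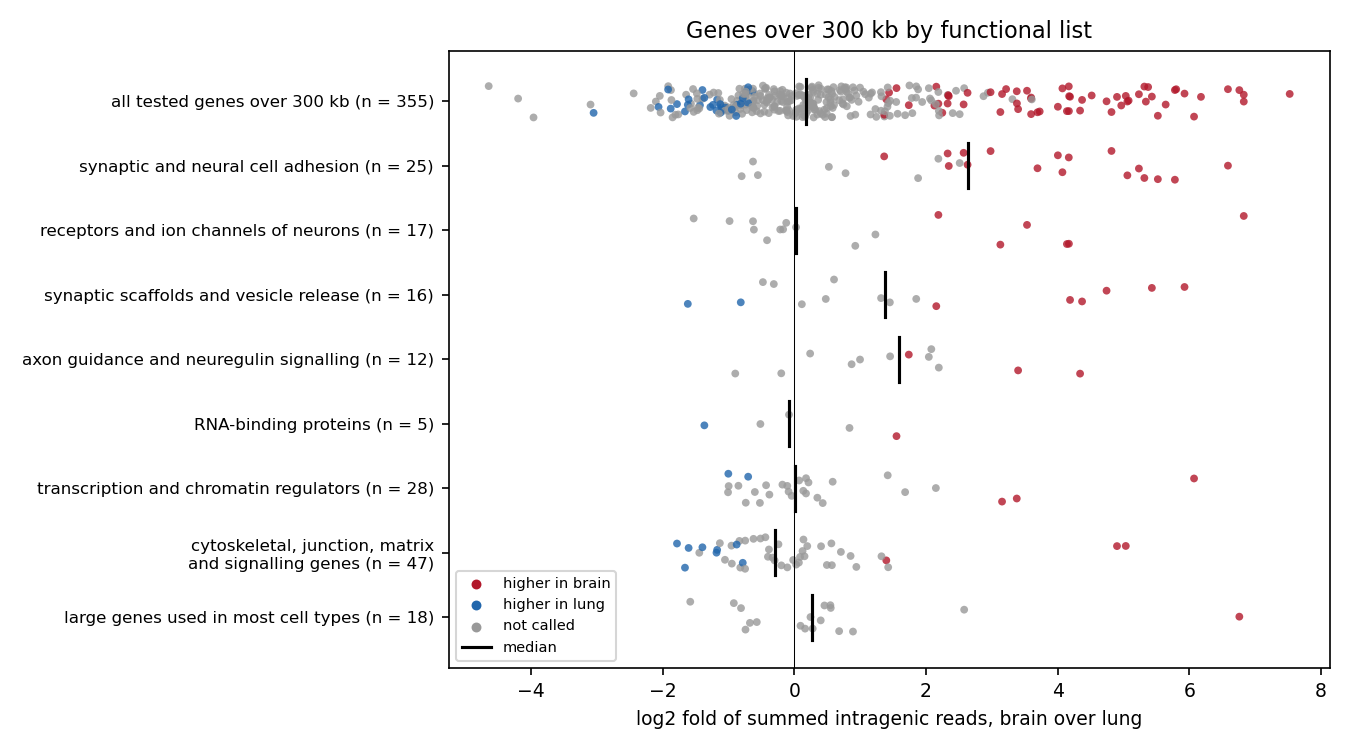
Log2 fold of summed intragenic reads, brain over lung, for each gene over 300 kb with a peak (top line, 355 genes) and for the genes of 8 functional lists, coloured by call, with the median as a black bar. Neural adhesion genes sit mostly to the right (17 of 25 called higher in brain, median 2.63), and the genes used in vessel, epithelial and mesenchymal cells lean to the left (8 of 47 called higher in lung, median -0.30).

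The other genes with the lowest p on the brain side stood outside the synaptic lists. Nol4 on chromosome 18 had 84.8, 100.2, 87.8 and 68.7 RPM in the brain libraries in its single peak, against 0, 0.325 and 5.87 RPM as lowest, median and highest in lung (log2 fold 5.64 ± 0.72 SE). Dock1, an activator of the GTPase Rac, had 32.8, 53.2, 42.6 and 38.7 RPM in the brain libraries against 0, 0.854 and 4.43 RPM as lowest, median and highest in lung. It encloses Insyn2a, which encodes a protein of inhibitory synapses, and Snd1, a nuclease-domain protein also higher in brain, encloses the synaptic adhesion gene Lrrc4. Snd1 was the only one of the 15 brain genes with lowest p whose libraries overlapped, at 47.3 ± 21.3 RPM in brain and 3.73 ± 6.36 RPM in lung. Slc35f1, Nbas and the diacylglycerol kinase gene Dgki had 1 peak each and log2 folds of 6.83, 6.18 and 5.34. Dgki lost its call without 200-nuclei brain replicate 1, at a log2 fold of 3.98 and an adjusted p of 0.131 by edgeR.

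Genes of cytoskeleton, junctions, matrix and signalling used in vessel, epithelial and mesenchymal cells formed the largest list, and all 47 over 300 kb held a peak. Of these, 3 were called toward brain and 8 toward lung, and the median log2 fold was -0.30, against 0.18 over all 355 long genes, of which 17.2% were higher in brain and 8.73% in lung. Of their 333 peaks, 15 were higher in brain and 23 higher in lung, beside 9.37% and 4.65% of all 1505. The 3 were Dock1, Pid1 and Magi1, and the 8 were Pakap, Prkce, Dlc1, Ldb2, Prex2, Dock4, Ptprg and Elmo1. The list's summed level was 2694 to 3547 RPM in the brain libraries and 4089 to 4941 RPM in the lung libraries, which did not overlap. Endothelial and mesenchymal marker sums moved in the same direction, and their part in the result was not tested.

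Pakap (chr4:57434475-57896984), a joint locus of paralemmin 2 and the kinase-anchoring protein AKAP2, had the lowest p of the genes higher in lung. Its 14 peaks summed to 216, 144, 145 and 157 RPM in the brain libraries, against 427, 502 and 612 RPM as lowest, median and highest in lung (log2 fold -1.6 ± 0.18 SE, adjusted p = 7.17e-07 by edgeR). The lowest lung library was well above the highest brain library. Prkce, the epsilon form of protein kinase C, had 337, 172, 196 and 148 RPM in the brain libraries over 22 peaks, against 385, 583 and 657 RPM as lowest, median and highest in lung (log2 fold -1.39 ± 0.21 SE), and 7 of the 22 peaks were called higher in lung. Dlc1, a GTPase-activating protein, had 172, 160, 171 and 150 RPM in the brain libraries over 18 peaks, against 306, 365 and 477 RPM as lowest, median and highest in lung. In Dlc1 only 1 peak was called, so the sum differed (log2 fold -1.18 ± 0.18 SE) with most single peaks below the threshold. Ldb2, a cofactor of LIM-domain transcription factors, had 43.8, 68.9, 37.6 and 15 RPM in the brain libraries, against 92.0, 136 and 170 RPM as lowest, median and highest in lung. In none of these 4 genes did the tissues overlap. The profiles most like that of Pakap across the 10 libraries were those of Vps13d, Bach2 and Dlc1 (Pearson r 0.974, 0.965 and 0.961), again as a description.

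Of the other lung genes with the lowest p, Vps13d, a lipid-transfer protein that encloses the retinaldehyde reductase gene Dhrs3, had 146 ± 40.9 RPM in brain against 355 ± 35.5 RPM in lung (SD, n = 4 and n = 6). Cdh23, a cadherin of hair-cell tip links that encloses the immune checkpoint gene Vsir, had 40.8 ± 18.1 RPM in brain against 145 ± 25.5 RPM in lung. Jazf1, a zinc-finger protein just over the length limit, had a single peak with 19.2, 9.40, 0 and 6.44 RPM in the brain libraries and 23.7, 66.4 and 86.4 RPM as lowest, median and highest in lung, and the largest log2 difference of the 15 at -3.05 ± 0.60 SE. Prex2, a Rac activator, had 26.8 ± 8.88 RPM in brain against 85.8 ± 22.1 RPM in lung. Prickle2 of the planar polarity pathway had 85.3 ± 23.9 RPM in brain against 182 ± 47.1 RPM in lung. Ncald, Agap1, Lrmda, Bcas3 and Etl4 differed by log2 folds of -1.05 to -1.43. Etl4 was the only one of the 15 in which the tissues overlapped.

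**Figure D4:**
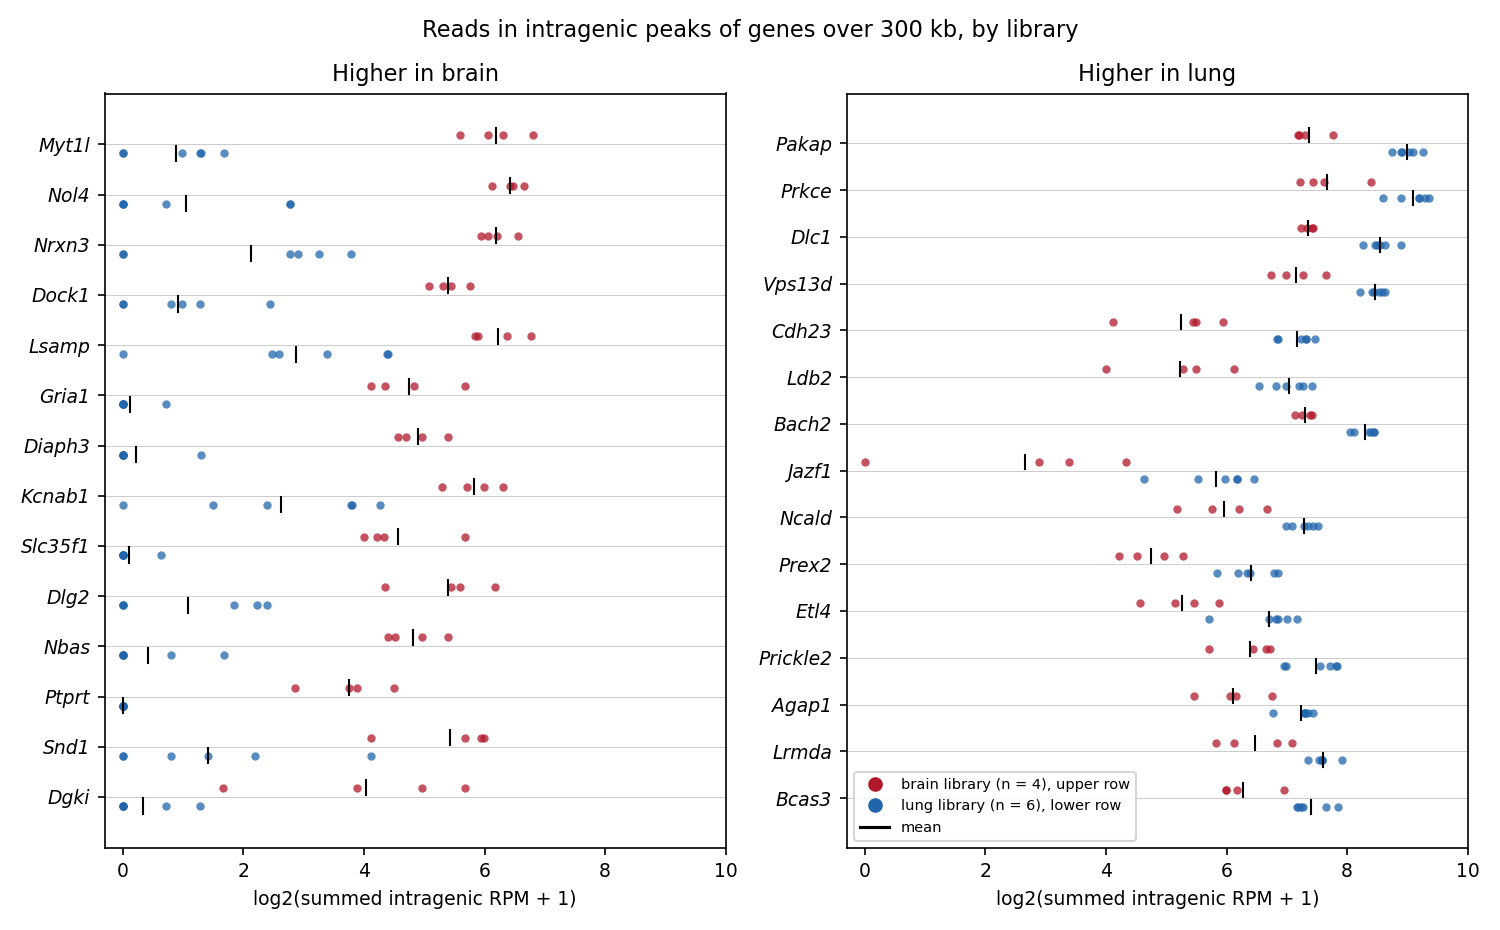
Summed intragenic RPM, as log2(RPM + 1), in each library for 14 genes over 300 kb higher in brain and 15 higher in lung, chosen by lowest p, with brain libraries (red, n = 4) above lung libraries (blue, n = 6) in each line and means as black bars. Genes higher in brain lie at or near 0 in several lung libraries, while the sums of genes higher in lung have reads in both tissues, with Pakap at 166 ± 34.2 RPM in brain and 510 ± 64.4 RPM in lung.

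Genes with many open regions were called in part only. Of the 37 genes with 10 or more intragenic peaks, 15 were higher in lung and 0 higher in brain by edgeR. Prkce, Dlc1, Vps13d and Syn3, described above, were among those higher in lung, while others had no call. Arhgap26, a GTPase-activating protein on chromosome 18 with the most such peaks (23), had 274 ± 59.3 RPM in brain against 349 ± 46.4 RPM in lung and no call (log2 fold -0.33 ± 0.19 SE, adjusted p = 0.235 by edgeR). Stard13, with 18 peaks, had 133 ± 38.5 RPM in brain against 210 ± 56.2 RPM in lung (adjusted p = 0.0562 by edgeR). Rad51b, a DNA repair gene with 18 peaks, was called higher in lung at -0.73 ± 0.22, although its only called peak was higher in brain. The call on the sum was lost without any 1 of 5 libraries, at adjusted p of 0.052 (50-nuclei brain replicate 1), 0.0718 (50-nuclei brain replicate 2), 0.131 (200-nuclei brain replicate 1), 0.0669 (50-nuclei lung replicate 1) and 0.058 (200-nuclei lung replicate 3) by edgeR. Stard13 passed the threshold with nuclear read totals, at an adjusted p of 0.0435, and without 200-nuclei brain replicate 1 or 50-nuclei lung replicate 3, at adjusted p of 0.0383 and 0.00378. Gse1, with 21 peaks and the highest level of the genes named here, had 483 ± 69.8 RPM in brain against 596 ± 78.3 RPM in lung and no call on its sum.

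In 9 genes, called peaks of both directions lay within the same gene, and in 7 of them the summed reads were not called. In all, 40 long genes held 2 or more called peaks, of which 21 had only brain calls and 10 only lung calls. The same count was not made for shorter genes. The 9 genes were Pakap and Frmd4a, with called sums, and Kalrn, Gse1, Cacna1c, Mast4, Nckap5, Tmtc2 and Vwa8, without. The Frmd4a sum, at a log2 fold of -0.64 ± 0.22 SE (adjusted p = 0.0351 by edgeR), lost its call without any 1 of 6 libraries (all but 200-nuclei brain replicate 2, 50-nuclei lung replicates 2 and 3 and 200-nuclei lung replicate 1), at adjusted p of 0.0744 to 0.229, and with RLE scaling, at 0.0652. Nckap5 passed the threshold without 50-nuclei lung replicate 3, at an adjusted p of 0.0124. Kalrn, a GTPase activator of dendritic spines that is also expressed outside the brain, had 11 peaks, of which 3 were called higher in brain, 2 in the opposite direction. The Kalrn peak chr16:34469573-34469668 had 24.6, 15.7, 32.6 and 19.3 RPM in the brain libraries and no lung read (at least 60.7-fold higher in brain). The Kalrn peak chr16:34352726-34353087 had 13.7, 18.8, 7.52 and 10.7 RPM in the brain libraries against 48.8, 63.4 and 117 RPM as lowest, median and highest in lung (log2 fold -2.47 ± 0.46 SE). The sum over the gene was 176 ± 40.6 RPM in brain and 244 ± 30.6 RPM in lung and was not called.

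In Cacna1c the peaks of opposite direction were close neighbours. The peak chr6:118977797-118977973 had 41.0, 47.0, 70.2 and 21.5 RPM in the brain libraries, against 0, 0.163 and 1.46 RPM as lowest, median and highest in lung (log2 fold 6.86 ± 1.02 SE, adjusted p = 2.76e-05 by edgeR). The peak chr6:118984308-118984701 had 8.21 RPM in 1 brain library and no read in the other 3, against 5.87, 21.4 and 33.8 RPM as lowest, median and highest in lung (adjusted p = 0.0179 by edgeR). The tissues were separated in the first and overlapped in the second. Gse1 had 3 peaks higher in brain, at 32.2 ± 25.6, 37.2 ± 16.4 and 45.2 ± 12.4 RPM in brain and 3.85 ± 4.38, 8.07 ± 6.70 and 9.78 ± 7.46 RPM in lung, and 1 peak higher in lung, at 37.0 ± 5.96 RPM in brain and 96.2 ± 46.5 RPM in lung. Mast4, Nckap5, Tmtc2 and Vwa8 had 1 peak in each direction.

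Of the 7 called peaks of Pakap, 1 was higher in brain and 6 were higher in lung, with 2 of these in the internal windows shown above. The peak in the upstream window, chr4:57567948-57568152, had 27.4, 53.2, 32.6 and 23.6 RPM in the brain libraries, against 0, 4.47 and 20.5 RPM as lowest, median and highest in lung (log2 fold 2.49 ± 0.80 SE, adjusted p = 0.0386 by edgeR). The peak in the downstream window, chr4:57845021-57845332, had 24.6, 18.8, 7.52 and 25.8 RPM in the brain libraries, against 76.5, 102 and 168 RPM as lowest, median and highest in lung (log2 fold -2.46 ± 0.38 SE, adjusted p = 3.63e-05 by edgeR). In neither peak did the tissues overlap. The lowest p of a lung peak in any long gene belonged to another region of Pakap, chr4:57679037-57679636, with 10.9, 6.26, 5.01 and 8.59 RPM in the brain libraries against 70.4, 90.9 and 133 RPM as lowest, median and highest in lung (log2 fold -3.58 ± 0.45 SE, adjusted p = 1.58e-06 by edgeR). It overlaps no window of an annotated start.

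**Figure D5:**
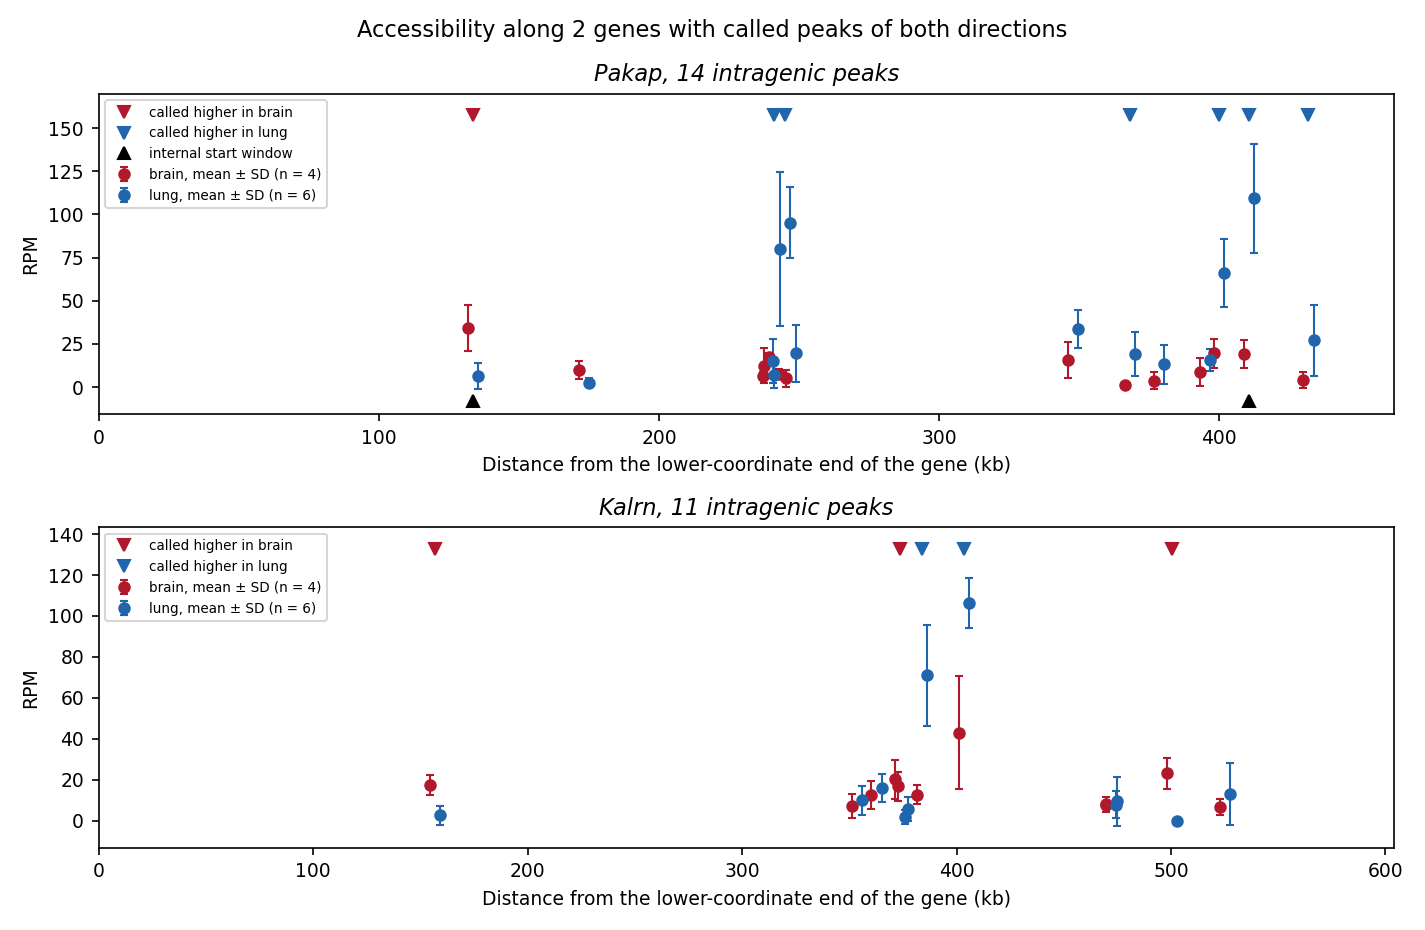
Mean accessibility (RPM ± SD) of every intragenic peak of Pakap (14 peaks) and Kalrn (11 peaks) by distance from the lower-coordinate end of the gene, with brain (red, n = 4) drawn slightly left of lung (blue, n = 6) for legibility. Triangles along the top mark called peaks by direction (1 brain and 6 lung in Pakap, 3 brain and 2 lung in Kalrn), and black triangles mark peaks in the windows of annotated internal starts of Pakap, of which the upstream one is higher in brain and the downstream one higher in lung.

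Of the 39 peaks in windows of internal starts, 38 lie near a start of the host gene itself and 1, in Cmss1, near a start of Filip1l. Of the 39, 11 were higher in brain, 2 higher in lung and 26 not called, while 13.5% of the other peaks were called in either direction. The 11 lay in Pid1, Esrrg, Anks1b, Nrxn3, Schip1, Ank2, Pakap, Magi1, Frmd4b, Nav2 and Palld, and the 2 in Frmd4a and Pakap. Of those that cover the start, 6 were higher in brain, 2 higher in lung and 16 not called. The Anks1b window peak, of a postsynaptic scaffold, had 27.3 ± 16.2 RPM in brain against 1.24 ± 1.38 RPM in lung (log2 fold 5.43 ± 1.18 SE). The Schip1 window peak, which also lies in the overlapping locus Iqschfp, had 49.4 ± 19.0 RPM in brain against 3.44 ± 4.23 RPM in lung (log2 fold 3.55 ± 0.76 SE). Nav2, a neuron navigator, had reads in every library at its start, with 89.8 ± 18 RPM in brain and 44.6 ± 8.12 RPM in lung. The Frmd4a window peak had 23.1 ± 6.79 RPM in brain against 63.7 ± 28.0 RPM in lung, with overlap (log2 fold -1.48 ± 0.47 SE). The peaks at starts of Stag1, Gphn and Adk had the highest levels of those without a call. Stag1, a cohesin subunit, had 160 ± 19.6 RPM in brain against 261 ± 71.1 RPM in lung, Gphn, the gephyrin scaffold of inhibitory synapses, 130 ± 17.3 RPM in brain and 86.9 ± 35.5 RPM in lung, and Adk, adenosine kinase, 115 ± 21.7 RPM in brain and 90.2 ± 35.6 RPM in lung.

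Position along the gene could be given for 1149 peaks whose gene has a strand in the tables used. The median distance from the 5′ end was 48.4% of the gene's length for 111 peaks higher in brain, 71.7% for 48 peaks higher in lung and 53.7% for uncalled peaks. In kb the medians were 287, 258 and 243 in the same order, so lung peaks were not farther from the 5′ end in bases than brain peaks. The first 20% of the gene's length held 17.1% of the brain peaks, 6.25% of the lung peaks and 17.1% of the uncalled peaks. These positions are a description and were not tested, as lung peaks come in groups within 44 genes and brain peaks lie in 118.

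Of single peaks not yet described, the lowest p on the brain side after those in Nol4 and Myt1l belonged to one in Ldlrad4 on chromosome 18, with 71.0 ± 36.5 RPM in brain and 2.80 ± 4.42 RPM in lung, although the sum over Ldlrad4 was not called. On the lung side a peak in Foxp1, a forkhead factor used in lung and in neurons, had 7.86 ± 7.44 RPM in brain against 70.1 ± 39.5 RPM in lung (log2 fold -3.33 ± 0.58 SE), with no call on the sum of its 13 peaks. A peak in Tcf4 on chromosome 18 had 10.7 ± 12.4 RPM in brain against 69.7 ± 14.4 RPM in lung.

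Genes just over the length limit were Zfp423 (300244 bp, 44.8 ± 16.1 RPM in brain and 34.6 ± 30.2 RPM in lung), Jazf1 (300560 bp) and Cacna1a (301621 bp, 36.5 ± 11 RPM in brain and 2.72 ± 3.64 RPM in lung). Just under it were Akap13 (299084 bp, 94.4 ± 24.4 RPM in brain and 151 ± 40.5 RPM in lung), Atp2b2 (298783 bp, 81.9 ± 21.9 RPM in brain and 26.5 ± 12.4 RPM in lung) and AW554918 (298592 bp, 1.22 ± 1.43 RPM in brain and 3.48 ± 3.85 RPM in lung). Peaks just inside the 5 kb distance limit lay in Mecom, Kcnab1 and Dscam at 2.59, 14.9 and 13.0 RPM in brain and 8.65, 0 and 0.461 RPM in lung. Peaks just outside it lay in Palld, Mecom and Tenm4 at 18, 7.31 and 25.7 RPM in brain and 6.87, 9.18 and 0.336 RPM in lung.

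The number of nuclei gave no calls. Between libraries of about 200 and of 50 nuclei, averaged over tissues, 0 of the 1505 peaks differed by edgeR (53 at an unadjusted p under 0.05), and the background over all peaks was 0.0%. For the difference in tissue effect between the sizes, 0 were called by edgeR (91 at an unadjusted p under 0.05, background 0.0%). With 2 or 3 libraries in each group, this does not show that the sizes were alike.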

How the data were processed

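Per the labels, LCM-ATAC-seq libraries were made from brain (4) and lung (6) sections. What the authors deposited is a single table of raw read counts, with peaks down and libraries across. Per the submitters' processing notes, the build was mm10 and the tools included Trimmomatic 0.36, Bowtie2 2.4.5, SAMtools 1.14 and MACS2 2.2.7.1, with no role given. How peaks were merged, and whether duplicates were removed or reads shifted for Tn5, is not given in the sources used here, and remaining duplicates would raise the spread between libraries of few nuclei. Total counts per library ran from 573596 to 10973796.

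Peaks were placed on RefSeq genes of GRCm38.p6, without exons or introns. Of the included peaks 10 lie in 2 or more genes over 300 kb and count for each. The table's start coordinates may count from 0 or 1. Peak counts were fitted over the whole table with edgeR 4.0.16 (R 4.3.3): at least 10 reads over the 10 libraries, TMM scaling, 1 mean for each tissue and size, quasi-likelihood test, Benjamini-Hochberg over all tested peaks. Contrasts were brain minus lung averaged over sizes, 200 minus 50 nuclei, and their interaction. Summed intragenic counts per gene were fitted the same way with the peak fit's library sizes. The steps were tested on simulated data. RPM divide by nuclear-peak reads, log2(RPM + 1) was used for likeness and figures, and a level of 0 was bounded with 3 reads over the group, for counting error only. Named genes were the 15 with lowest p in each direction, the 8 with most peaks, those with called peaks of both directions and those next to the limits, and named peaks were the 10 with lowest p in each direction. Some items that this rule or a list would name are not reported here. Other genes are named as called members of a list, or were chosen after their values were seen (Rbfox3, the internal starts, uncalled list members). The peaks, genes and lists were chosen with earlier results of these data known. Alternatives were RLE or nuclear-total scaling, no filter, filterByExpr, a replicate block, DESeq2 1.42.0, a 500 kb limit, gene ends of protein-coding genes only, and leaving out libraries. The effect of those gene ends on the share of reads was added after seeing the data.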

Additional observations from a re-analysis of the deposited data

Results flagged for a closer look

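In 113 groups of 4 brain or 6 lung libraries, the value farthest out was compared with the gap that Dixon's test allows at 95%, and 15 values stood apart, where chance gives about 1 in 20 groups. Of these, 8 were values in lung at genes or peaks higher in brain. In lung, Dock1 had 4.43 RPM in replicate 1 of the 200-nuclei libraries, against 0 to 1.42 RPM in the other 5. Gria1 had 0.650 RPM in replicate 3 of the 200-nuclei libraries, Diaph3 1.46 RPM in replicate 2 and Slc35f1 0.554 RPM in replicate 1, with 0 in the other lung libraries. Where the other 5 libraries are at 0, any read stands apart by this measure, so the rate of 1 in 20 does not hold for these 3 genes. Nbas and the Myt1l peak at chr12:29872481-29872729 both had 2.22 RPM in replicate 1 of the 200-nuclei lung libraries, against 0 to 0.732 RPM in the others. The Ldlrad4 peak had 11.6 RPM in that same library, against 0 to 2.28 RPM. Snd1 had 16.4 RPM in replicate 3 of the 50-nuclei lung libraries, against 0 to 3.58 RPM, and this library alone made Snd1 overlap with brain.

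Other values stood apart at higher levels. In brain, Slc35f1 had 50.1 RPM in replicate 2 of the 50-nuclei libraries, against 15 to 19.2 RPM, and Bcas3 had 123 RPM in replicate 1 of the 50-nuclei libraries, against 62.6 to 70.9 RPM. In lung, Agap1 was low in replicate 2 of the 50-nuclei libraries, at 109 RPM against 155 to 171 RPM. Replicate 3 of the 50-nuclei lung libraries was high for Lrmda, at 239 RPM against 162 to 191 RPM, and low for Syn3, at 179 RPM against 316 to 373 RPM. Replicate 1 of the 200-nuclei lung libraries was low for Kalrn, at 187 RPM against 241 to 272 RPM, and for the Tcf4 peak, at 42.1 RPM against 67.5 to 81.0 RPM.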

How the results depend on the processing

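The main counts were 141 peaks and 61 genes higher in brain, and 70 peaks and 31 genes higher in lung. With filterByExpr, whose minimum for peaks was higher in brain in RPM, 22 peaks were higher in brain. Without replicates 2 and 3 of the 50-nuclei lung libraries 234 peaks and 67 genes were higher in lung. Leaving out 1 library at a time gave 63 to 231 peaks and 39 to 98 genes higher in brain, and 25 to 162 peaks and 17 to 54 genes higher in lung. The other scalings, no filter, DESeq2 and gene ends of protein-coding genes only kept all 4 counts within 1.5 times. A limit of 500 kb left 78 peaks and 40 genes higher in brain, and 17 peaks and 8 genes higher in lung. With those gene ends the share of nuclear reads was 1.93% in brain and 2.14% in lung, against 1.63% and 1.86%, by construction, as more peaks enter. Of 53 named items with a call, 49 kept it wherever they could be tested, and Frmd4a, Rad51b, Syn3 and Dgki lost theirs under at least 1 alternative. Most of the 53 were chosen by lowest p in the same data, so this does not speak for the other calls. Of all 211 called peaks, 93 to 108 stayed called when 1 brain library was left out. Of the uncalled sums, Stard13, Kalrn and Nckap5 gained a call under at least 1. Without replicate 1 of the 50-nuclei lung libraries the median log2 fold of all peaks was 0.42, against 0.07 with it, and changes there are relative to that shift.

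The sums of 4 uncalled genes turned sign, and the cause was not tested. Cacna1c, at -0.17 with all libraries, was at 0.10 with the replicate block and at -0.41 to 0.037 when 1 library was left out. In the same leave-one-out fits Mast4 ran from -0.10 to 0.29, Tmtc2 from -0.023 to 0.30 and Vwa8 from -0.87 to 0.019. The libraries whose absence turned the sign were replicate 2 of the 200-nuclei brain libraries (Cacna1c, Tmtc2 and Vwa8), replicate 1 of the 50-nuclei brain libraries (Mast4), and replicates 1 and 3 of the 50-nuclei lung libraries (Cacna1c).

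No pairing of the libraries by replicate number was seen, but the check could not exclude it. Deviations from the mean of a brain group of 2 libraries mirror each other. Deviations of the 13 same-numbered pairs correlated at -0.030 to 0.020, and 2 of 10 libraries correlated best with their own number. With the replicate block 68 peaks and 47 genes were higher in brain, and 50 peaks and 35 genes higher in lung. The block ended the calls on the Rad51b and Frmd4a sums, at adjusted p of 0.06 and 0.102 by edgeR, and Stard13 passed at 0.0177. Depths of 319307 to 465489 nuclear reads in brain limit what low peaks can show, and 50-nuclei lung replicates 2 and 3 lack a read in most of these peaks.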
